A study of Homo sapiens with 24 samples.

Results

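ISRIB on its own was compared with vehicle in HepG2 cells, an established human liver cancer line, at the level of every gene in the count table. The libraries were chosen by their labels: 4 from cells given 50 nM ISRIB for 10 h and 4 from cells given DMSO, the vehicle, for the same 10 h, which makes 8 of the 24 libraries of the series. Both groups received fresh complete medium at the start of the treatment and neither received any other compound. The other libraries, 4 per condition, came from cells given 20 uM nelfinavir, 50 nM bortezomib, or bortezomib together with nelfinavir or with ISRIB. According to the labels, each condition has 4 biological replicates of 1 cell line. The sources used here do not say how the replicate cultures were kept apart, so the p-values measure the spread between these libraries.

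Cells slow protein synthesis under stress by phosphorylating the alpha subunit of eIF2, the factor that brings the initiator tRNA to the ribosome. Phosphorylated eIF2 inhibits its own exchange factor, eIF2B, and the mRNA of the transcription factor ATF4 is then translated more, which raises genes of amino acid supply, tRNA charging and stress-linked cell death. ISRIB binds eIF2B and keeps it active when eIF2 is phosphorylated, and it is generally described as having little action of its own in cells that are not stressed. HepG2 cells make albumin, apolipoproteins and other secreted proteins of the hepatocyte, and so carry a steady load on the endoplasmic reticulum (ER). The 3′ mRNA libraries were primed from the poly(A) tail with oligo(dT), so most reads come from the last part of an mRNA, and the same primer can also anneal to runs of A farther upstream.

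The 8 libraries held between 5950624 and 6943164 counts, and the totals of the groups overlapped (exact permutation test, two-sided, p = 0.8, where the smallest p that 4 against 4 can give is 0.0286). ISRIB replicate 3 stood apart from the other 7 libraries. On the first principal component of the 8 libraries, which held 21.1% of the variance, it lay at 34.4, the other ISRIB libraries at 0.90 to 3.24 and the DMSO libraries at −12.5 to −7.41. Values without it are given for many, though not all, of the genes, lists and trends that turn on it. Mitochondrially encoded genes took 21.5% ± 1.32 of the counts in DMSO and 21.9% ± 1.60 in ISRIB (SD, n = 4 each; exact permutation p = 0.771). At least 1 count was found for 14454 ± 56.4 genes in DMSO and 14389 ± 40.3 in ISRIB (exact permutation p = 0.114, and 0.286 after thinning to the smallest library). All 9 hepatocyte markers examined were detected and summed to 11940 to 13300 CPM (read counts scaled by the adjusted library size) in DMSO and 11250 to 12020 CPM in ISRIB. The 6 fibroblast markers together reached at most 0.524 CPM and the 5 endothelial markers at most 0.123 CPM in any library, and 4 of each list were at 0 or had no entry in the table. The 6 leukocyte markers summed to 338 to 419 CPM in DMSO and 338 to 439 CPM in ISRIB, nearly all of it LYZ, the secreted enzyme lysozyme, while PTPRC, CD3E and CSF1R had no entry.

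ISRIB and DMSO differed by little in these libraries, and the number of genes called depended on the tool and the fit. Of the 12685 genes that entered edgeR's quasi-likelihood test, with all 24 libraries sharing 1 estimate of the spread, 0 (0%) had a Benjamini-Hochberg adjusted p under 0.05, and the smallest adjusted p was 0.169. At an unadjusted p under 0.05, 256 genes (2.02%) were higher and 447 (3.52%) lower with ISRIB, where 5% of the genes in all would be 634. In a fit of the 8 libraries alone, 690 (5.73%) of 12049 genes were higher and 916 (7.6%) lower, where 5% would be 602. DESeq2 called 1 gene higher (0.0245%) and 18 lower (0.441%) of the 4078 genes for which it gave an adjusted p, and edgeR without the expression filter called 39. The log2 fold changes were centred at 0.004, with 6445 genes above 0 and 6225 below, and their median size was 0.127. In 443 genes (3.49%) all 4 ISRIB libraries lay above all 4 DMSO libraries, and in 573 (4.52%) they lay below.

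**Figure D1:**
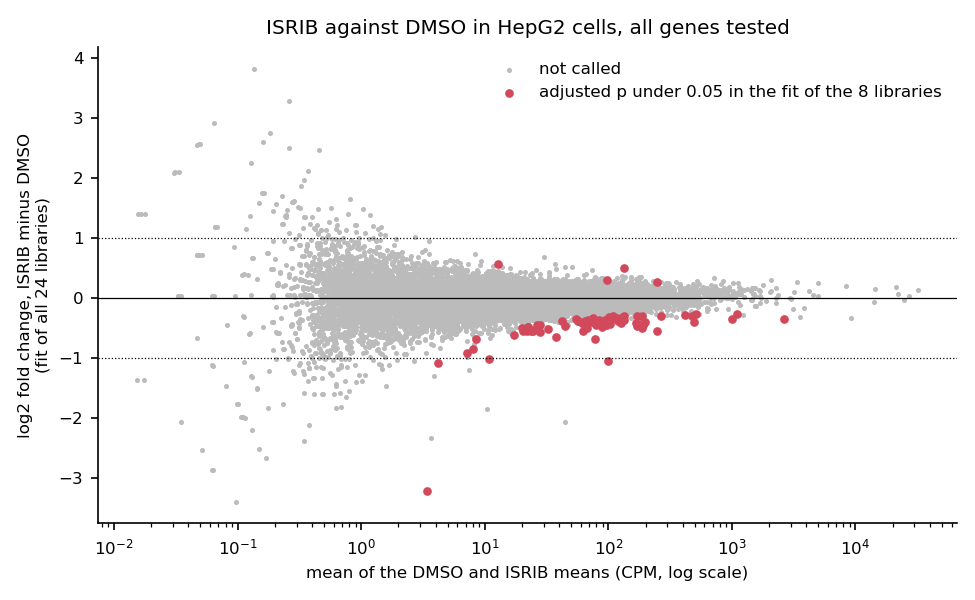
Each point is 1 of the 12685 genes tested, with the mean of the DMSO and ISRIB means in CPM on a log axis and the log2 fold change of ISRIB against DMSO from the fit of all 24 libraries on the vertical axis; dotted lines mark 2-fold changes. Red points are the genes called when only the 8 libraries were fitted, most of them below 0 and at 10 CPM or more, while the changes beyond 2-fold sit mostly under 1 CPM.

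The precision of the comparison set the size of change that it could have missed. For 9980 genes (78.7%) the whole 95% interval of the fold change lay within 2-fold of no change and for 7311 (57.6%) within 1.5-fold. This varied with the expression level. Among the 1358 genes at 100 CPM or more, the interval lay within 2-fold for all 1358 and within 1.5-fold for 1327 (97.7%), and a typical interval reached 1.14-fold either side of the estimate. Among the 6450 genes at 10 to 100 CPM the counts were 6430 (99.7%) within 2-fold and 5530 (85.7%) within 1.5-fold, and a typical interval reached 1.23-fold. Among the 3700 genes at 1 to 10 CPM, 2191 (59.2%) were held within 2-fold and 454 (12.3%) within 1.5-fold. Of the 1177 genes under 1 CPM, 1 was held within 2-fold, so at this depth the intervals of the others include changes beyond 2-fold.

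Estimated changes beyond 2-fold were found in 183 genes, of which 154 were under 1 CPM, 25 at 1 to 10 CPM, 4 at 10 to 100 CPM and 0 at 100 CPM or more, and 38 of them had an unadjusted p under 0.05. A further 6230 of the 18915 genes in the table were too low to test, among them 1634 without a count in the 8 libraries. Of those 6230 genes, 3 had no count in DMSO and at least 10 with ISRIB, and 2 had the reverse.

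**Figure D2:**
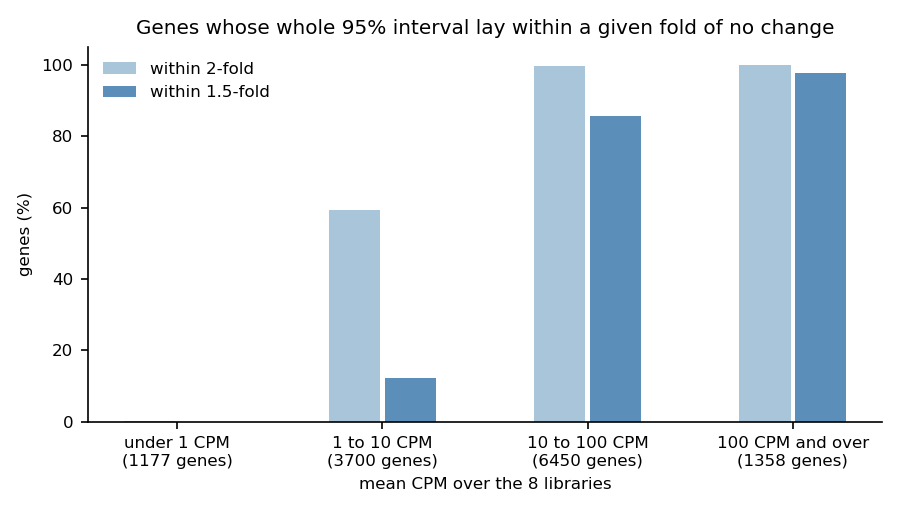
Bars give the share of genes (%), in 4 classes of mean CPM over the 8 libraries, whose whole 95% interval of the ISRIB against DMSO fold change lay within 2-fold or 1.5-fold of no change in the fit of all 24 libraries. The share within 2-fold goes from 1 gene of 1177 under 1 CPM to 99.7% at 10 to 100 CPM and 100% at 100 CPM and over.

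Of the genes that encode the eIF2 machinery itself, all 8 subunits of eIF2 and eIF2B were tested, and 0 passed an unadjusted p of 0.05 in either direction. Their median log2 fold change was 0.068, beside 0.004 over all genes. EIF2S2, the beta subunit of eIF2, read 542, 529.7, 486 and 529.5 CPM in DMSO replicates 1 to 4 and 544, 527, 474 and 547 CPM in ISRIB replicates 1 to 4. The groups overlapped, with the lowest library of each group at replicate 3, and the 95% interval of the fold was 0.894 to 1.12. EIF2B2, the beta subunit of the complex that ISRIB binds, read 25.2, 24.99, 24.6 and 28.2 CPM in DMSO and 34.8, 31.0, 26.1 and 32.9 CPM in ISRIB. Its log2 fold change was 0.28 ± 0.14 (SE), the interval of the fold reached from 0.989 to 1.48, and the unadjusted p was 0.0629. ISRIB replicate 3, at 26.1 CPM, was the only ISRIB library inside the DMSO range, and without it the log2 fold change in the fit of the 8 libraries was 0.35.

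Of the 8 eIF2alpha kinases and phosphatase factors, 1 had an unadjusted p under 0.05, DNAJC3, an ER co-chaperone that also inhibits the eIF2alpha kinase PERK, at a log2 fold change of −0.19 (unadjusted p = 0.0445), and the median of the list was −0.025. EIF2AK1, the heme-regulated kinase, read 269.5, 286, 277 and 285 CPM in DMSO and 292, 247, 298 and 304.5 CPM in ISRIB, for a log2 difference of 0.031. EIF2AK3, which encodes PERK, was at 15.3 ± 1.33 CPM in DMSO and 12.5 ± 0.690 CPM with ISRIB (SD, n = 4 each); the libraries did not overlap, and the log2 fold change of −0.28 had an unadjusted p of 0.0783. PPP1R15A, the stress-induced phosphatase subunit GADD34, had an interval of the fold from 0.841 to 1.33.

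ATF4 mRNA read 234, 246, 219 and 233 CPM in DMSO and 228, 233, 251.5 and 209.6 CPM in ISRIB. The 2 ranges lay over each other, the log2 fold change was −0.016 ± 0.12 (SE), and the 95% interval of the fold was 0.840 to 1.16. ATF4 is controlled mainly at translation, so its mRNA says little of its protein, and the genes it activates were examined next.

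DDIT3, the ATF4-induced death factor CHOP, read 13.9, 14.8, 12.3 and 12.4 CPM in DMSO and 15.4, 14.3, 12.7 and 10.2 CPM in ISRIB. TRIB3, the pseudokinase that CHOP and ATF4 induce and that feeds back on ATF4, read 51.0, 48.7, 58.2 and 54.7 CPM in DMSO and 58.1, 51.3, 47.9 and 58.2 CPM in ISRIB. In both genes the groups overlapped fully, with intervals of the fold of 0.807 to 1.20 for DDIT3 and 0.871 to 1.18 for TRIB3. CEBPB, a partner factor of ATF4, was bounded less closely, at 0.695 to 1.21. Of the 9 ATF and C/EBP factors tested, 0 passed an unadjusted p of 0.05, and their median log2 fold change was −0.025.

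ATF4 acts with C/EBP factors at composite elements, and a stretch that matches this element in the promoter shows which listed genes carry a candidate site near their start. The motif searched was TGATGNAA on either strand, in RefSeq promoters of 300 bases around the gene start (GRCh38.p14). It was in 1217 of 27305 promoters (4.46%) and in 19 of the 55 listed ATF4-pathway genes that had a promoter in the table (34.5%), of 69 listed. The genes below show it beside the values that follow; capitals mark the match, on the strand of the gene.
ASNS: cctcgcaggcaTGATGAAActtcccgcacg
CEBPG: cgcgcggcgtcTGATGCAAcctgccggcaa
CARS: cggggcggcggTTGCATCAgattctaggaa
GOT1: aattgcattggTTGCATCAttctcggcagc

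These stretches lie at chr7:97872458-97872487 (minus strand) for ASNS, chr19:33374060-33374089 (plus) for CEBPG, chr11:3057407-3057436 (minus) for CARS and chr10:99430804-99430833 (minus) for GOT1, with the match starting 68, 42, 2 and 198 bases before the gene start. Of the 19 genes with a match, 17 were tested, 4 had a log2 fold change above 0 and 13 below, and the median was −0.12 (range −0.43 to 0.75). The 36 genes without a match had 13 above and 23 below, with a median of −0.033 (range −2.004 to 0.30). CEBPG was at 30.9 CPM in DMSO and 25.3 CPM with ISRIB, a log2 fold change of −0.29 with overlap between the groups. A match is no proof of a site, and its absence says only that these letters are not in this window.

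ASNS, asparagine synthetase and a standard ATF4 target, read 17.2, 14.1, 13.2 and 17.0 CPM in DMSO and 17.4, 14.2, 20.6 and 16.1 CPM in ISRIB. Its highest library was ISRIB replicate 3, the others overlapped, and the log2 fold change was 0.15 ± 0.13 (SE; interval of the fold 0.920 to 1.33, unadjusted p = 0.272), or 0.046 in the fit of the 8 libraries without that library. PSAT1, of serine synthesis, read 129, 129.6, 179.7 and 177 CPM in DMSO and 164, 157, 159.6 and 141 CPM in ISRIB. Here the DMSO libraries were split, replicates 1 and 2 below every ISRIB library and replicates 3 and 4 above, and the fold was held within 0.83 to 1.23. Of the 14 genes of amino acid synthesis, 1 had an unadjusted p under 0.05, GOT1, the cytosolic aspartate aminotransferase, at a log2 fold change of 0.19 (unadjusted p = 0.0478), and the median of the list was 0.021.

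SLC7A11, the cystine transporter, was the ATF4-pathway gene with the second smallest p. It read 31.1, 35.8, 31.2 and 30.8 CPM in DMSO and 22.6, 26.1, 23.3 and 22.6 CPM in ISRIB, so that all 4 ISRIB libraries lay below all 4 DMSO libraries. The log2 fold change was −0.45 ± 0.11 (SE; unadjusted p = 0.000207), and by edgeR's quasi-likelihood test the adjusted p was 0.215 with all 24 libraries, 0.0311 with the 8 libraries alone and 0.0188 with the 8 libraries without ISRIB replicate 3. With offsets for GC content and transcript length in the fit of the 8 libraries it was 0.236, so the call was lost there. Its partner chain SLC3A2 had a fold interval of 0.861 to 1.09. Of the 9 amino acid transporters tested, 1 had an unadjusted p under 0.05 and 7 had a log2 fold change below 0, with a median of −0.073.

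Among the 20 cytosolic tRNA synthetases, which load amino acids on tRNAs and of which many are ATF4 targets, 0 were higher and 5 lower at an unadjusted p under 0.05, with a median log2 fold change of −0.10, where 2.02% and 3.52% of all genes were higher and lower and the median was 0.004. EPRS, the fused glutamyl-prolyl-tRNA synthetase, read 143, 149, 163 and 151 CPM in DMSO and 115, 116, 109 and 128 CPM in ISRIB. Every ISRIB library was below every DMSO library, the log2 fold change was −0.37 ± 0.087 (SE) and the adjusted p was 0.213 with all 24 libraries and 0.0155 with the 8. The others were CARS at −0.36, YARS at −0.28, LARS at −0.24 and MARS at −0.22, each without overlap between the groups and with unadjusted p from 0.00311 to 0.0141. DARS, for aspartate, and WARS, for tryptophan, were at 0.046 and 0.050. The median coding length of the list was 2074.5 bases, beside 1398 over all genes tested. With offsets for GC content and transcript length its median in the fit of the 8 libraries was −0.09.

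Of 12 further ATF4 targets, 10 were tested and 1, ADM2, a small secreted peptide hormone, had an unadjusted p under 0.05 (log2 fold change −0.47, unadjusted p = 0.0144), with a median of −0.087 over the list. CHAC1, a glutathione-degrading enzyme, had 1 count in the 8 libraries and FGF21, a hepatokine, had 0, so neither could be read. GDF15, a stress hormone of the TGF-beta family, read 185, 195, 129.7 and 145 CPM in DMSO and 134, 144, 175 and 156 CPM in ISRIB. The DMSO libraries alone spanned the ISRIB range, and the fold was held only within 0.772 to 1.11. The 5 genes listed for ER stress apoptosis had 0 with an unadjusted p under 0.05 and a median of −0.013. The BH3-only genes BBC3, BCL2L11 and PMAIP1 were at log2 fold changes of 0.30, −0.090 and −0.013, and PMAIP1, at 1.78 CPM in DMSO and 1.77 CPM in ISRIB, was bounded only within 0.584 to 1.68.

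On the 6 lists from the ATF and C/EBP factors to the apoptosis genes, 67 of 69 genes were tested. At an unadjusted p under 0.05, 1 was higher and 7 lower, where 2.02% and 3.52% of all genes were, and 24 log2 fold changes were above 0 and 43 below, with a median of −0.060 beside 0.004 over all genes. With the 8 libraries alone, 64 of these genes were tested. At an unadjusted p under 0.05, 4 were higher and 13 lower, where 690 (5.73%) and 916 (7.6%) of 12049 genes were. EPRS and SLC7A11, 2 of the 64, were called lower, where 76 (0.631%) of all genes were. The median of these genes in the fit of the 8 libraries was −0.055, and −0.057 without ISRIB replicate 3. With offsets for GC content and transcript length it was −0.081. For scale, the same genes had a median log2 fold change of 1.33 in nelfinavir against the same DMSO libraries, and side by side ATF4 was at −0.016 with ISRIB and 1.90 with nelfinavir, DDIT3 at −0.025 and 2.55, TRIB3 at 0.021 and 2.32, ASNS at 0.15 and 4.001. The intervals held 64 of the 67 genes within 2-fold of no change with ISRIB and 51 within 1.5-fold.

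**Figure D3:**
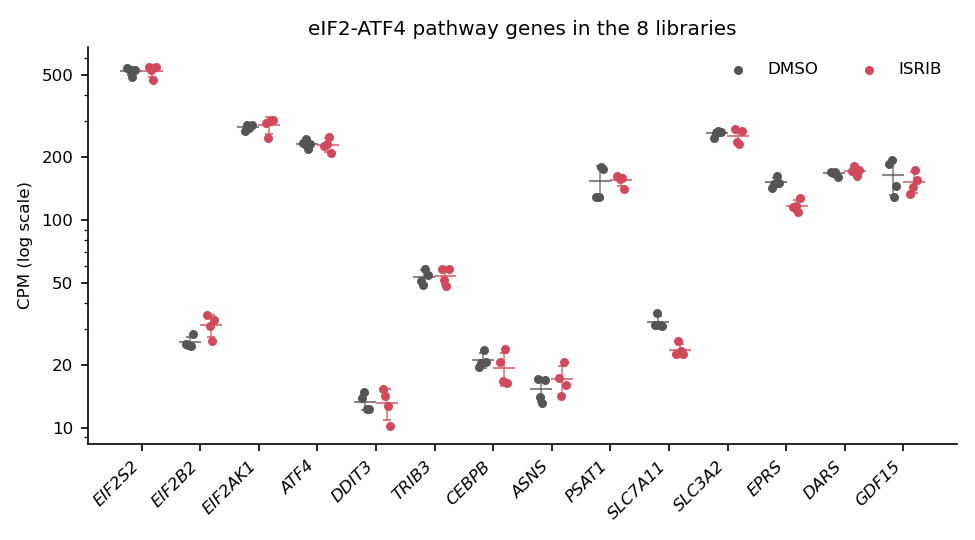
Points are the CPM (log axis) of 14 genes of the eIF2-ATF4 pathway in the 4 DMSO and 4 ISRIB libraries, with horizontal bars at the group mean and error bars of 1 SD. The groups overlap in all but SLC7A11 and EPRS, where all ISRIB libraries lie below all DMSO libraries.

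The ER folding machinery was compared because HepG2 cells secrete heavily. HSPA5, the chaperone BiP and a standard readout of ER stress, read 1400, 1455, 1456 and 1526 CPM in DMSO and 1410, 1370, 1534 and 1369 CPM in ISRIB. The ranges overlapped and the fold was held within 0.849 to 1.12. Of the 14 ER chaperones and folding enzymes, 2 were lower at an unadjusted p under 0.05, where 3.52% of all genes were, and the median was −0.10 beside 0.004. PDIA3, a disulfide isomerase that works with calnexin on glycoproteins, read 340.2, 309, 277 and 260.1 CPM in DMSO and 196, 183, 195 and 233 CPM in ISRIB. All ISRIB libraries lay below all DMSO libraries, the log2 fold change was −0.56 ± 0.15 (SE), and the adjusted p was 0.334 with all 24 libraries, 0.00773 with the 8 and 0.000188 with the 8 without ISRIB replicate 3. The other was HSP90B1, the ER paralogue of HSP90, at 1214 CPM in DMSO and 1002 CPM in ISRIB (log2 fold change −0.28, unadjusted p = 0.00922). With nelfinavir, against the same DMSO libraries, PDIA3 was at −0.35. XBP1, whose spliced form drives ER-associated degradation, was at −0.056, and of 14 genes of that branch 0 had an unadjusted p under 0.05 (median −0.081).

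The genes with the smallest p were mostly lower with ISRIB. GOLGB1 encodes giantin, the largest golgin, a coiled-coil tether of the Golgi (ENSG00000173230, chr3:121382046-121468813, GRCh37, minus strand, coding length 9792 bases). It read 218.5, 210.1, 240.0 and 217 CPM in DMSO and 145.5, 155.5, 153.5 and 171 CPM in ISRIB. The groups were apart, with a log2 fold change of −0.50 ± 0.10 (SE), a 95% interval of the fold of 0.613 to 0.813 and an adjusted p of 0.169. LAMC1, the gamma 1 chain of laminin, read 115, 113, 114.5 and 104 CPM in DMSO and 78.6, 77.4, 74.0 and 95.04 CPM in ISRIB, for a log2 fold change of −0.46 ± 0.095 (SE) with the same adjusted p. CENPF, a kinetochore and mitotic coiled-coil protein, read 574, 517, 602 and 556 CPM in DMSO and 418, 419, 399 and 472 CPM in ISRIB, for a log2 fold change of −0.40 ± 0.084 (SE). In LAMC1 and CENPF, as in GOLGB1, no ISRIB library reached the lowest DMSO library, and ISRIB replicate 4 was the ISRIB library nearest to DMSO in all 3. Against the same DMSO libraries, nelfinavir gave log2 fold changes of −0.64 for LAMC1, −0.38 for CENPF and 0.29 for GOLGB1. Lower values of LAMC1 and CENPF were thus not particular to ISRIB.

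HIST1H1C, a linker histone, had the largest difference of the genes named by p in the fit of 24 libraries. It read 181, 133, 114 and 112 CPM in DMSO and 75.4, 52.0, 39.4 and 91.8 CPM in ISRIB, with wide spread within each group and no overlap between them. The log2 fold change was −1.06 ± 0.23 (SE) and the adjusted p 0.186; without ISRIB replicate 3, the lowest library, it was −0.89 in the fit of the 8 libraries. SETD2, a histone methyltransferase, read 81.7, 77.6, 86.2 and 71.0 CPM in DMSO and 57.6, 54.8, 47.7 and 62.0 CPM in ISRIB, for a log2 fold change of −0.51. CENPE, a kinetochore motor, read 205, 191, 204.5 and 187 CPM in DMSO and 153, 139.6, 115 and 161 CPM in ISRIB, for a log2 fold change of −0.47. For SETD2 and CENPE the lowest library was ISRIB replicate 3, and the other ISRIB libraries also lay below every DMSO library. Without that library their log2 fold changes in the fit of the 8 were −0.44 and −0.38. With nelfinavir, against the same DMSO libraries, HIST1H1C was at −1.44, SETD2 at −0.33 and CENPE at −0.29, so these lower values were not particular to ISRIB.

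Some of the higher genes lost part of their difference without ISRIB replicate 3. PPP2R1A, the scaffold of the phosphatase PP2A, read 21.6, 24.9, 23.9 and 21.7 CPM in DMSO and 28.9, 27.03, 63.7 and 29.2 CPM in ISRIB. Its highest library was ISRIB replicate 3, and without it the log2 fold change in the fit of the 8 libraries went from 0.69 to 0.30. CDC34, a ubiquitin-conjugating enzyme, read 90.3, 80.4, 89.7 and 86.0 CPM in DMSO and 111, 106, 106 and 104 CPM in ISRIB. Its difference was small and even, a log2 fold change of 0.30 ± 0.12 (SE), and stood at 0.31 without that library.

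**Figure D4:**
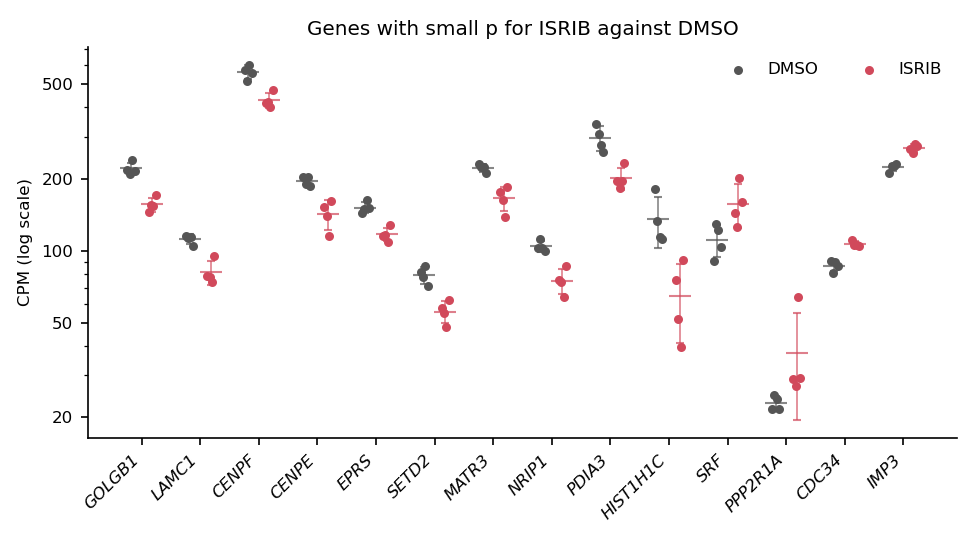
Points are the CPM (log axis) of 14 genes with small p in the 4 DMSO and 4 ISRIB libraries, with horizontal bars at the mean and error bars of 1 SD. The first 10 genes lie lower with ISRIB in every library, and in PPP2R1A 1 ISRIB library, replicate 3, lies far above the rest.

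A fit of the 8 libraries alone used the spread within DMSO and ISRIB only, which was smaller: the biological coefficient of variation was 0.0881 there and 0.139 over all 24 libraries. In that fit edgeR's quasi-likelihood test called 4 genes higher (0.0332%) and 76 lower (0.631%) of 12049 tested. The 4 higher genes were CDC34, SRF, IMP3 and TNFSF14. SRF, a transcription factor of growth and cytoskeletal genes, read 90.5, 129, 122 and 104 CPM in DMSO and 144, 125, 202 and 159 CPM in ISRIB, with overlap, and its log2 fold change went from 0.50 to 0.36 without ISRIB replicate 3. IMP3, a nucleolar protein of the U3 snoRNP, read 211.5, 226, 226 and 231 CPM in DMSO and 267.5, 256, 280.5 and 275 CPM in ISRIB, without overlap.

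The 76 lower genes were modest in size, with a median log2 fold change of −0.42, and 4 exceeded 2-fold. The genes were picked for low p on these same libraries, so the gap between the groups, without overlap in 74, is a description. Their adjusted p in the fit of 24 libraries ran from 0.169 to 1.0. GOLGB1 had an adjusted p of 0.00343 in the fit of the 8 libraries and 0.000126 without ISRIB replicate 3. Of the 76 lower calls, 75 were also made without that library. The number of calls in both directions depended on other libraries: without DMSO replicate 1 there were 3, without DMSO replicate 3 there were 5, without ISRIB replicate 1 there were 6, and without DMSO replicate 2, DMSO replicate 4 or ISRIB replicate 2 there were 20, 25 and 34, of which 4 in the last were higher. Without ISRIB replicate 3 there were 112, and without ISRIB replicate 4 there were 114. All 76 genes kept a log2 fold change below 0 in each of these fits. With nelfinavir libraries added, 12 in all, 0 genes were called and the smallest adjusted p was 0.0600. MTRNR2L8 and MTRNR2L12, at log2 fold changes of −1.03 and −0.69, are near copies of the mitochondrial rRNA gene MT-RNR2, so their counts are uncertain.

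The genes called lower had long coding sequences. Of the 73 with a coding length in the annotation (GENCODE on GRCh37), 42 (57.5%) had 3000 bases or more, beside 1525 (13.95%) of the genes tested, and the median was 3660 bases beside 1401. Their transcripts had a median GC content of 41.2% beside 48.2%. They had a median of 3 A-rich runs, windows of 12 bases with at least 10 A, beside 0. The runs were counted over each transcript outside its last 300 bases, so a longer transcript has more room for them. Such runs are shown because an oligo(dT) primer can anneal to them. The genes shown were picked for holding at least 3 runs, and not every gene called lower holds them. LAMC1, HIST1H1C and PDIA3 hold 0, and SETD2 and ITGB1 hold 1 each. Each stretch is from a coding exon, on the strand of the gene, and capitals mark the run.
GOLGB1: gctgataacAAAATTAAAAAActaaaactt
CENPF: aattcaggcAAAAAACAAATAgaaaaactg
CENPE: tacgaacagAAAAAGAAGAAAtggaattga
IQGAP1: gctgaagccAAGAAGAAAAAActggcagta

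In GRCh37 they lie in coding exon 4 of GOLGB1 (chr3:121448143-121448172), coding exon 3 of CENPF (chr1:214788325-214788354), coding exon 16 of CENPE (chr4:104095961-104095990) and coding exon 17 of IQGAP1 (chr15:91009638-91009667). The GOLGB1 and CENPF transcripts hold 7 such runs each, CENPE 12 and IQGAP1, an actin and Rac scaffold, 5. The table holds counts per gene, so the place of the reads along a transcript was not examined and the part of such runs in the counts was not tested.

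The difference followed coding length across all genes tested, called or not. In 8 groups of genes of equal number, the median log2 fold change went from 0.062 at coding lengths of 66 to 594 bases, where 33.0% of genes were below 0, to −0.095 at 3156 to 26391 bases, where 69.9% were. The longest group held 42 of the genes called lower. The gap between the medians of the longest and the shortest group, measured in each library against the DMSO mean, was −0.20, −0.15, −0.15 and −0.11 in ISRIB replicates 1 to 4 and 0.047, −0.001, 0.008 and −0.039 in the DMSO replicates. All 4 ISRIB libraries lay below all 4 DMSO libraries, and ISRIB replicate 3 was within the range of the others here.

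GC content moved too, and here ISRIB replicate 3 led. The median log2 fold change went from −0.085 at 27.4 to 38.9% GC to 0.056 at 60.9 to 74.4% GC. The gap between the highest and the lowest GC group was 0.13, 0.035, 0.30 and 0.088 in ISRIB replicates 1 to 4 and 0.003, 0.042, −0.058 and 0.011 in DMSO, so among these 8 libraries ISRIB replicate 2 fell inside the DMSO range and replicate 3 was far above the others. Measured against the same DMSO mean, the nelfinavir libraries had 0.094, 0.083, 0.33 and 0.18, again highest in replicate 3, so the GC gap was not particular to ISRIB. Their gaps by coding length were 0.054, −0.031, −0.002 and −0.017, near those of DMSO. With bortezomib the gaps by coding length were larger and above 0, at 0.343, 0.408, 0.412 and 0.183. With bortezomib and ISRIB together they were 0.233, 0.223, 0.411 and 0.265, within the range of bortezomib alone. Across genes, Spearman's rho with the log2 fold change was −0.21 for coding length (11328 genes) and 0.24 for GC content (12412 genes); genes are not independent replicates and share these 8 libraries. Coding length and GC content themselves were nearly unrelated over these genes (rho −0.008). The number of A-rich runs had rho −0.22 with the log2 fold change and 0.22 with coding length. Its gap, genes with 7 or more runs minus genes with 0, was −0.14, −0.093, −0.17 and −0.09 in ISRIB replicates 1 to 4. In DMSO it was 0.044, −0.024, 0.008 and −0.035. With nelfinavir it was 0.011, −0.09, −0.11 and −0.10, so this gap was not particular to ISRIB. In 3 strata of equal gene number by GC content, the median of the longest 25% of genes minus that of the shortest 25% was −0.16 in the lowest stratum, −0.11 in the middle one and −0.043 in the highest, and without ISRIB replicate 3 it was −0.15, −0.12 and −0.053. In 3 strata by coding length, the 25% of genes highest in GC content minus the 25% lowest gave 0.080, 0.13 and 0.19 from the shortest to the longest stratum, and 0.024, 0.081 and 0.14 without ISRIB replicate 3, so the GC gap was smaller without that library, most of all in the shortest stratum.

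**Figure D5:**
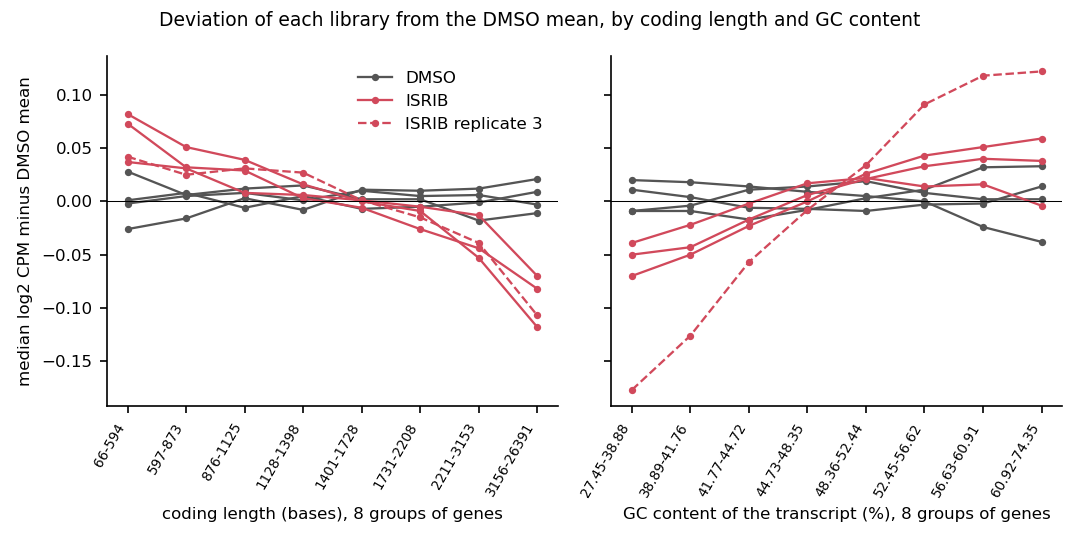
Lines give, for each library, the median deviation of log2 CPM from the DMSO mean in 8 groups of genes by coding length (bases, left) and by GC content of the transcript (%, right). With length, all 4 ISRIB libraries go from above 0 in the shortest group to below 0 in the longest; with GC content, ISRIB replicate 3 (dashed) has the steepest line, from −0.18 to 0.12.

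Fitting offsets for GC content and transcript length in the 8 libraries left 5 genes called higher and 31 lower, 29 of the latter among the 76. The length in the offsets was that of the whole transcript, and coding length itself was not fitted. They removed most of the GC trend but only part of the trend with coding length. In the fit of 24 libraries with offsets Spearman's rho across genes was −0.034 for GC content and −0.14 for coding length. For the number of A-rich runs it was −0.017. GOLGB1 (adjusted p = 0.0119), PDIA3 (0.0119), LAMC1 (0.0191) and EPRS (0.0402) were still called by edgeR's quasi-likelihood test, and CENPF (0.0702) was not. Whether length and GC content follow the treatment or the preparation of the libraries cannot be told apart here, since the labels name no batch.

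Other gene groups are given by their counts at an unadjusted p under 0.05 and their medians, beside 2.02% higher, 3.52% lower and a median of 0.004 over all genes. All 12 golgins, the coiled-coil tethers of the Golgi, had a log2 fold change below 0, with a median of −0.30, and 6 had an unadjusted p under 0.05: GOLGB1, TRIP11 (98.0 CPM ± 4.44 in DMSO and 72.7 CPM ± 13.1 in ISRIB, SD, n = 4 each), TMF1, GCC2, GOLGA4 and BLZF1. The list was drawn up with the value of GOLGB1 known, and its members are mostly long coiled-coil genes. Its median was −0.27 without ISRIB replicate 3 and −0.21 with the offsets for GC content and transcript length. With nelfinavir, against the same DMSO libraries, it was 0.185. Of 14 mitotic genes, 3 were lower, CENPF, CENPE and the checkpoint kinase BUB1 (log2 fold change −0.46), while the drivers CDK1, CCNB1 and PLK1 were at 0.13, 0.068 and 0.17 and the median of the list was −0.088. Of 16 DNA replication genes, 1 was higher (CDT1, the licensing factor, 0.25) and 1 lower (POLA1, of DNA polymerase alpha, −0.29), with a median of 0.090.

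Cytosolic ribosomal proteins, which have short mRNAs, lay the other way: 72 of 83 had a log2 fold change above 0, 9 were higher and 2 lower at an unadjusted p under 0.05, and the median was 0.096, or 0.10 without ISRIB replicate 3 and 0.056 with the offsets. RPS12 was at 3049 CPM in DMSO and 3650 CPM with ISRIB (log2 fold change 0.26) and RPS27A 4563 and 5416 CPM (0.25), both without overlap, whereas RPL41, the shortest of them, was at −0.30. With nelfinavir, against the same DMSO libraries, the median of the list was 0.206. Ribosomal protein genes have many processed pseudogenes, which can share their reads. The sign of the ribosomal and golgin medians did not depend on the scaling, which moved the median of all genes by 0.015 in either direction.

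Of 20 histone genes, 4 were lower at an unadjusted p under 0.05 (HIST1H1C, HIST1H1E at −1.21, HIST1H2AJ at −1.30 and HIST2H2AC at −1.09), with a median of −0.48. Most were under 6 CPM, and only 4 intervals lay within 2-fold. With nelfinavir, against the same DMSO libraries, the list median was −0.87, so lower values were not particular to ISRIB. The DMSO libraries themselves spread widely: against the DMSO mean, the list median was 0.416, 0.039, −0.135 and −0.22 in DMSO replicates 1 to 4. In ISRIB replicates 1 to 4 it was −0.346, −0.417, −0.512 and −0.293. Replication-dependent histone mRNAs lack a poly(A) tail, so these libraries capture few of them.

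The hepatocyte's secreted proteins were close to level, with 1 of 17 higher and 1 lower, a median of −0.057 and all 17 intervals within 1.5-fold. ALB, albumin, was at 3323 CPM in DMSO and 2929 CPM with ISRIB (log2 fold change −0.18, unadjusted p = 0.151). APOB, the apolipoprotein of very-low-density lipoprotein and by far the longest transcript of the list, was at 2970 ± 136 CPM in DMSO and 2326 ± 128 CPM with ISRIB (SD, n = 4 each), a log2 fold change of −0.35 without overlap and with an adjusted p of 0.0153 in the fit of the 8 libraries. SERPINA1, alpha-1 antitrypsin, was at 639 CPM in DMSO and 803 CPM with ISRIB (log2 fold change 0.33, unadjusted p = 0.00469), with overlap.

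The remaining lists cover other stress programmes, lipid synthesis and the mitochondrial genome. The 14 cytosolic chaperones had 0 genes with an unadjusted p under 0.05 and a median of 0.025, and HSP90AA1, HSP90AB1 and HSPA8 were at 0.035, 0.002 and −0.057. Of 10 p53 targets, 1, PHLDA3, was higher (log2 fold change 0.40, unadjusted p = 0.00862), with CDKN1A at 0.075, MDM2 at −0.11 and a median of 0.073. Of 8 NRF2 targets tested, 1 was higher at an unadjusted p under 0.05, and TXNRD1, thioredoxin reductase, and SLC7A11 were lower, with NQO1 at 0.047, HMOX1 at −0.054 and a median of 0.046. Of 14 genes on the cholesterol list, 0 had an unadjusted p under 0.05 (median 0.057), with SQLE, squalene epoxidase, at −0.085. Of 13 mitochondrially encoded genes, 1, MT-ND5, was lower (log2 fold change −0.32, unadjusted p = 0.00658), and the median was 0.065.

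The effect of ISRIB alone was set beside its effect in cells that also had 50 nM bortezomib, a proteasome inhibitor, which involves 8 other libraries. There edgeR called 876 genes higher (6.91%) and 677 lower (5.34%) on adding ISRIB. With ISRIB alone, 49.2% of those 677 genes were below 0 and 52.0% of those 876 above 0, with medians of 0.004 and 0.005. Across the 12685 genes the log2 effects of ISRIB with and without bortezomib had Pearson's r of 0.009 and Spearman's rho of 0.020. The 2 effects share no library, and genes are not independent replicates. The difference between them was called in 372 genes (2.93%) as higher with bortezomib and in 240 (1.89%) as lower.

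HSPA5 differed most of the pathway genes shown, with the effect of ISRIB 2.27 higher on the log2 scale in the presence of bortezomib than alone (adjusted p = 3.29e-13, edgeR's quasi-likelihood test). DNAJC3 and PDIA3, shown for a small p with ISRIB alone, had log2 effects of 1.02 and 0.73 on adding ISRIB to bortezomib. The stress-induced phosphatase subunit PPP1R15A (−1.19), the death gene BBC3 (−1.11) and TRIB3 (−0.49) differed the other way. Of the 67 ATF4-pathway genes tested, whose median log2 effect of ISRIB was −0.30 with bortezomib and −0.060 alone, 14 were called as differing downward. GOLGB1 and LAMC1, shown for their small p with ISRIB alone, had log2 effects of 0.18 and 0.11 on adding ISRIB to bortezomib (adjusted p = 0.233 and 0.507, edgeR's quasi-likelihood test).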

How the data were processed

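The authors prepared QuantSeq 3′ mRNA-Seq (FWD) libraries from total RNA, used cutadapt 2.8 for trimming and STAR for alignment to hg19, per the labels and methods. The deposited values are raw counts of reads for each of 18915 genes, in 24 libraries. The study's methods name the nf-core workflow and an Ensembl GRCh37 annotation limited to protein-coding, lincRNA and antisense genes; the counting tool, whether strand was used and whether molecular identifiers were counted is not given in the sources used here. Overlapping and antisense genes cannot be told apart, and reads may not be independent molecules.

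Counts were analysed in R 4.3.3 with edgeR 4.0.16 (filterByExpr with minimum count 5 and minimum total 25, TMM factors, quasi-likelihood F test, p adjusted by Benjamini-Hochberg, 1 model for the 24 libraries and 6 conditions) and, as an alternative, DESeq2 1.42.0; Python 3.11.15 was used for the rest. The code was tested on simulated data. Intervals are 95% intervals of the log2 fold change. CPM values use TMM-scaled library sizes. For measures with 1 value a library, exact permutation tests (two-sided) were used. The GENCODE annotation on GRCh37 covered 18304 genes (96.8%). Per-library values are shown for members of the gene lists and for the 10 genes per direction with the smallest p in the fit of 24 or of 8 libraries; the members and lists were chosen with earlier results of these data known. Alternatives were the scaling, filter, robust fit, replicate block, libraries in the fit and each library left out. Added after the data were seen were offsets for GC content and transcript length. Replicates differed by more than counting noise, and no pair of libraries was merged. DMSO and ISRIB libraries with the same replicate number did not deviate together. The values of some listed genes are not reported here.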

Additional observations from a re-analysis of the deposited data

Results flagged for a closer look

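In 7 of 120 checks of a group of 4 libraries, 1 library lay far from the other 3 relative to the range of the group, where chance gives about 1 such group in 20. ISRIB replicate 3 was that library for PPP2R1A at 63.7 CPM, MOB4 at 78.7 CPM and C19orf43 at 138 CPM, each above the other ISRIB libraries, and for ITPR1 at 4.38 CPM, below them. Without it, log2 fold changes in the fit of the 8 libraries went from 0.51 to 0.26 (MOB4) and from 0.46 to 0.13 (C19orf43). ITPR1 went from 0.070 to 0.18. In DMSO, replicate 1 was low for NGDN at 72.2 CPM, replicate 2 was high for SLC7A11 at 35.8 CPM and replicate 4 was high for EIF2B2 at 28.2 CPM.

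The log2 effect of ISRIB with bortezomib minus that without was called by edgeR's quasi-likelihood test for 15 of the genes shown. Of these, 9 genes, GOLGB1, LAMC1, IQGAP1, PDIA3, ITGB1, PHYHD1, GLE1, DNAJC3 and GOT1, were shown for a small p with ISRIB alone. That effect enters with a minus sign, so the choice of these genes favours 1 sign of the difference. It was above 0 for HSPA5 (2.27, adjusted p = 3.29e-13), PDIA3 (1.28), DNAJC3 (1.21), IQGAP1 (0.70), ITGB1 (0.69), GOLGB1 (0.69) and LAMC1 (0.57, adjusted p = 0.00893). It was below 0 for PPP1R15A (−1.19), BBC3 (−1.11), GLE1 (−0.82), PHYHD1 (−0.81), TRIB3 (−0.49), GOT1 (−0.48), EIF2S2 (−0.46) and DARS (−0.35, adjusted p = 0.0484). On adding ISRIB to bortezomib, in other libraries, the log2 effect was 0.18 for GOLGB1, 0.11 for LAMC1, 0.15 for ITGB1 and −0.34 for PHYHD1. These were not called (adjusted p = 0.233, 0.507, 0.531 and 0.127, edgeR's quasi-likelihood test). The same test called DNAJC3 (1.02), PDIA3 (0.73), IQGAP1 (0.33), GLE1 (−0.48) and GOT1 (−0.29, adjusted p = 0.0305). Bortezomib was given at the same 50 nM for the same 10 h in both groups of that contrast.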

How the results depend on the processing

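With all 24 libraries, edgeR called 0 genes under the RLE factors, library totals alone, the default filter, the robust fit, the replicate block, the offsets for GC content and length, and without each DMSO or ISRIB library in turn, and likewise with 12 libraries. DESeq2 called 19 genes (1 higher, 18 lower), edgeR without the expression filter 39 (5 and 34), the 8 libraries 80 (4 and 76), the 8 libraries with a replicate block 40 and with offsets for GC content and length 36. DMSO and ISRIB libraries with the same replicate number did not deviate together (correlations −0.029 to 0.004). Those with different numbers had correlations of −0.048 to 0.066. The ISRIB replicate numbers do not follow the order of the library numbers in the labels, and a pairing of the cultures was not tested further. In the fit of the 8 libraries the calls ran from 3 to 114 when 1 library was left out: 3 without DMSO replicate 1, 20 without DMSO replicate 2, 5 without DMSO replicate 3, 25 without DMSO replicate 4, 6 without ISRIB replicate 1 and 34 without ISRIB replicate 2. The calls rose to 112 without ISRIB replicate 3 and to 114 without ISRIB replicate 4. The cause was not tested. The genes held within 2-fold numbered 9628 to 10800 under all alternatives, and the calls of the difference between the effects of ISRIB with and without bortezomib ran from 438 to 891, within 1.5 times the 612 reported. The difference in mitochondrially encoded share ran from −0.181 to 1.095 percentage points.

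Genes close to 0 changed sign when 1 library was left out of the fit of 24, in log2 units: EIF2S2 ran from −0.028 to 0.048, EIF2AK1 from −0.003 to 0.094, ATF4 from −0.060 to 0.025, PSAT1 from −0.062 to 0.097, DDIT3 from −0.11 to 0.079, TRIB3 from −0.019 to 0.073, ITPR1 from −0.066 to 0.18, PMAIP1 from −0.39 to 0.21 and PPP1R15A from −0.009 to 0.18. With library totals alone EIF2S2 was at −0.016 and PSAT1 at −0.005. With the offsets TRIB3 was at −0.044 (24 libraries) and −0.045 (8 libraries), and PMAIP1 at 0.049 and 0.052. Depth limits what can be said under 1 CPM, where 1 gene of 1177 was held within 2-fold. The intervals come from edgeR's quasi-likelihood fit and so include the spread between libraries.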
